A study of Homo sapiens with 4 samples.

Results

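The RAB GTPases are the largest family of small GTPases of membrane traffic. Members were taken as the protein-coding genes whose symbol is RAB followed by a number and, for some, a letter and a further digit. This gave 63 of the 61541 gene rows of the count tables. RNA was sequenced from H1299 cells, an established human lung carcinoma line, after treatment with ginseng nanoparticles or with PBS, a buffered salt solution that served as control, with 2 libraries per group. No genotype differs between the groups, and the labels give no dose, exposure time or plant part for the nanoparticles. The study concerned the effect of these particles on cancer cell migration and their contact with the cell surface. The labels do not tell whether replicates were grown separately, so the p-values rest on a spread between libraries that may be technical.

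A RAB protein cycles between a GTP-bound form on a membrane and a GDP-bound form held in the cytosol. Exchange factors (GEFs) load GTP, GTPase-activating proteins (GAPs) of the TBC family end the signal, GDI proteins extract the GDP form from membranes, and escort proteins present new RABs for the lipid attachment that lets them reach a membrane. Each RAB marks its own step, such as RAB5 on early endosomes, RAB7 on late endosomes and lysosomes, RAB11 on recycling endosomes, RAB27 on secretory granules and RAB1 between ER and Golgi. Particles taken up by a cell pass through several of these compartments, which is the reason for describing the family step by step.

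Counts on genes were between 22252686 and 24979081 per library. Levels below are CPM, read counts scaled to library size with trimmed mean of M-values (TMM) factors, and levels compared between genes are CPM per kilobase of the principal transcript. The line's mesenchymal filament gene VIM was the most abundant marker, at 2319 and 2390 CPM with PBS and 2231 and 2188 CPM with nanoparticles, and fell by 0.092 on the log2 scale (SE 0.019, edgeR adjusted p = 0.0137). This call held in 6 of 14 alternatives and was lost without a low-count filter, by DESeq2, with trends of transcript length or of length and GC content removed and without any 1 of the 4 libraries, while VIM ran from -0.11 to -0.064 over them. In contrast, the 6 epithelial markers together reached at most 3.10 CPM, with KRT5, KRT14 and SFTPC at 0 in every library. The endothelial, fibroblast and immune marker sums were at most 1.0002, 1.43 and 0.840 CPM, and PTPRC was at 0 throughout. In such bulk libraries, fewer cells of a type and less RNA per cell cannot be told apart.

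No RAB gene passed the test between nanoparticle and PBS libraries. Of the 63 members 50 had enough counts to be tested, and 0 of these passed an adjusted threshold of 0.05 by edgeR (quasi-likelihood fit), against 2.58% of all 15778 tested genes, with 1.75% higher and 0.83% lower in nanoparticle libraries. The smallest adjusted p among them was 0.259. DESeq2, limma-voom and edgeR with the replicate number as a block also called 0 members, against 0.57%, 2.69% and 4.81% of all genes. At an unadjusted p under 0.05 there were 2 members, RAB27A and RAB2B, against 16.8% of all genes. The fold changes lay evenly around 0, with 25 members above and 25 below, and a median log2 fold change of -0.0022 against 0.00056 for all tested genes. Nanoparticle libraries were both above the PBS libraries for 9 members and both below for 10, where 23.7% and 23.2% of all tested genes stood apart in these ways.

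The width of the intervals shows how much change the main edgeR fit could hide, and does not cover other choices of processing. With the trend of transcript length removed, for example, 2 members moved outside their main-fit intervals. RAB3B was then at a log2 fold change of -0.17, against an interval of -0.14 to 0.038. RAB21 was at -0.074, against -0.012 to 0.14. For 30 of the 50 tested members the 95% interval of the fold change lay within 1.2-fold in either direction, and for 45 within 1.5-fold. The remaining 5 were RAB3C, RAB7B, RAB33B, RAB39B and RAB43, and of these all but RAB33B had at most 51 counts in any library. A mean of at least 100 counts was reached by 41 of the tested members. The RAB genes together took 0.356% and 0.354% of gene counts with PBS and 0.354% and 0.355% with nanoparticles, so the groups overlapped. With 2 libraries per group the smallest p of an exact permutation test is 0.333, and none was run on such shares.

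**Figure D1:**
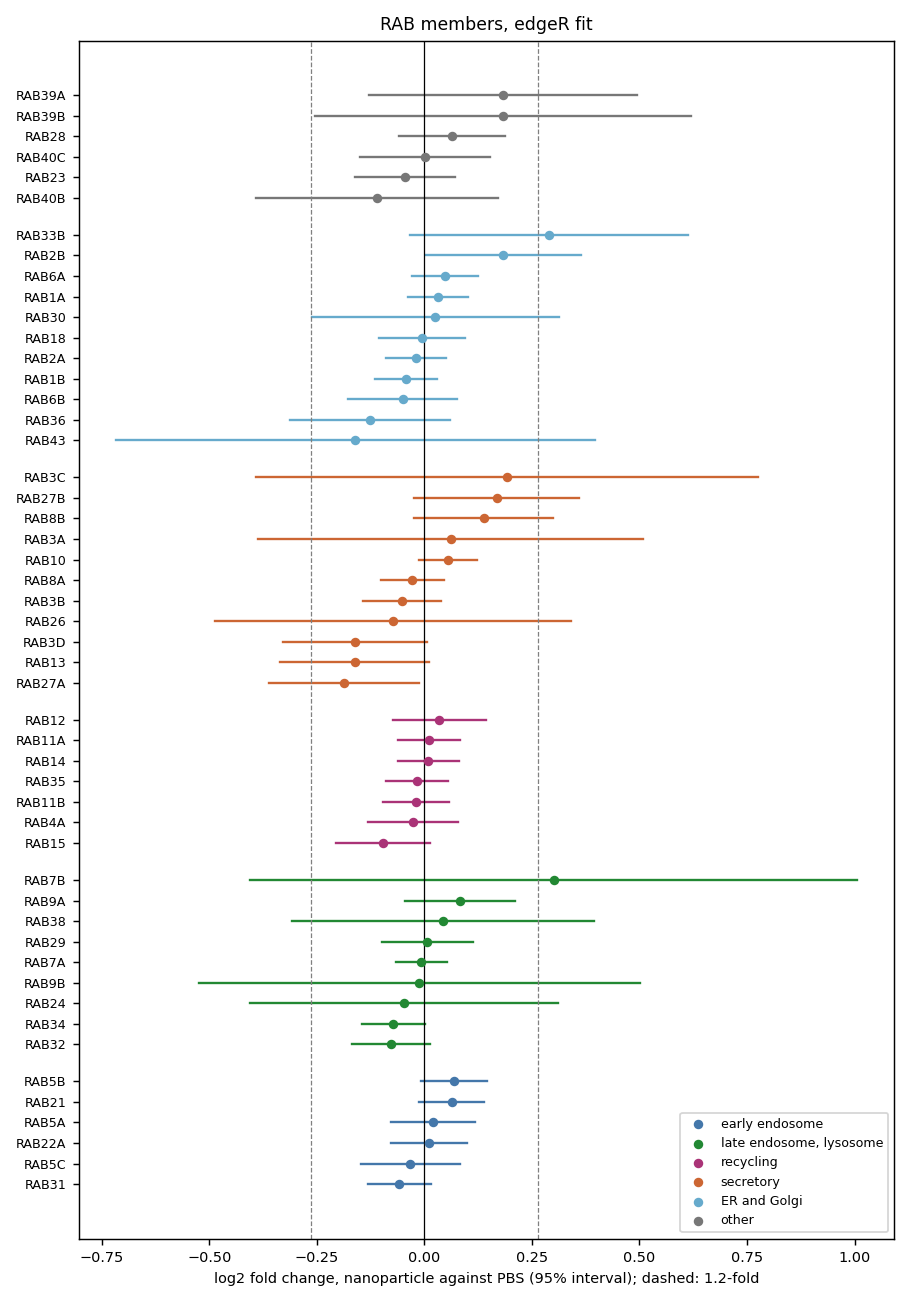
Log2 fold change of the 50 tested RAB members with 95% intervals from the edgeR fit (horizontal axis), 1 row per gene, coloured by the step the gene serves. Dashed lines mark 1.2-fold, and the intervals of 30 members lie between them.

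Early endosomal RABs receive cargo from the plasma membrane, and all 6 of them were tested. Their log2 fold changes ran from -0.058 to 0.069, with a median of 0.015, and each of the 6 intervals lay within 1.2-fold. RAB5A, which drives fusion of early endosomes, was at 59.97 and 58.6 CPM in the PBS libraries and at 58.3 and 61.9 CPM in the nanoparticle libraries. The groups overlapped, and the log2 fold change was 0.019 (SE 0.047, edgeR adjusted p = 0.886). RAB5B had 106.9 and 108.1 CPM with PBS and 114 and 111 CPM with nanoparticles. Its nanoparticle libraries were both above the PBS libraries, with a log2 fold change of 0.069 (SE 0.037), but the adjusted p in edgeR was 0.362. RAB31, an endosomal and Golgi relative of RAB22A, had the highest level per length of the class at 32.7 CPM per kilobase and a log2 fold change of -0.058.

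The 3 RAB5 genes stood close to one another in level, and their mRNAs can be told apart by sequence. RAB5A took 37.5% ± 0.380 (SD, n = 2) of the summed level per kilobase in PBS cells, RAB5B 32.3% ± 0.458 and RAB5C 30.3% ± 0.0780. With nanoparticles the shares were 37.5% ± 1.42, 33.4% ± 0.882 and 29.2% ± 0.535. With all exons as the length RAB5B came before RAB5A in PBS cells (36.2% and 34.8%), so their order depends on the length used. Below are 60 bases of the coding sequence of each around the phosphate-binding loop, the part of the protein that holds the nucleotide, shown because they tell how far reads of the paralogues differ. Capitals mark the 24 bases that encode the loop (GENCODE 29 principal transcripts, GRCh38).
RAB5A: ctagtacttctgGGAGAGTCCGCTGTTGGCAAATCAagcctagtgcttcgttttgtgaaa
RAB5B: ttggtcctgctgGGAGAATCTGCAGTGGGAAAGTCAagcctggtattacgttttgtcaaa
RAB5C: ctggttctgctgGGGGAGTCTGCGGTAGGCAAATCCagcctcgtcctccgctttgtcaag
RAB5A differs from RAB5B at 15 of these 60 bases and from RAB5C at 14, and the longest run that RAB5A shares with RAB5B anywhere in the coding sequence is 14 bases. RAB5A lies on chromosome 3 from 19947079 to 19985175, RAB5B on chromosome 12 from 55973913 to 55996683 and RAB5C on chromosome 17 from 42124976 to 42155044. A readthrough or overlapping gene on the same strand, AC099811.2, covers 28.8% of the exon bases of RAB5C, so its level can be undercounted.

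Among the 10 late endosomal and lysosomal RABs 9 were tested, with log2 fold changes from -0.078 to 0.30 and a median of -0.0074. RAB7A, which directs late endosomes to lysosomes, was the RAB mRNA with the highest level per length at 187 CPM per kilobase. It was at 413 and 427 CPM with PBS and at 417 and 419 CPM with nanoparticles. The nanoparticle values lay between the PBS values, the log2 fold change was -0.0074 (SE 0.028, edgeR adjusted p = 0.932) and the 95% interval of the fold change ran from 0.955 to 1.04. RAB7A lies on chromosome 3 from 128726122 to 128814796. RAB32, of lysosome-related organelles, stood at 72.4 CPM per kilobase and RAB34, which positions lysosomes, at 71.4.

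RAB34 had the smallest p of the class. Its levels were 129.6 and 128.8 CPM with PBS and 122.7 and 123.0 CPM with nanoparticles, so the groups did not overlap. The log2 fold change of -0.072 (SE 0.035) had an edgeR adjusted p of 0.301. RAB32 had 91.7 and 89.2 CPM with PBS and 89.3 and 82.0 CPM with nanoparticles (log2 -0.078, SE 0.044, edgeR adjusted p = 0.385). RAB9A, which returns receptors from late endosomes to the Golgi, had a log2 fold change of 0.083 (SE 0.062). The widest interval belonged to RAB7B, with 14 to 24 counts per library, and RAB20 was too low to be tested.

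All 7 tested recycling RABs had an interval within 1.2-fold, and their log2 fold changes ran from -0.096 to 0.035. RAB11A, which returns cargo from the recycling endosome to the surface, had 177 and 169.5 CPM with PBS and 173 and 176 CPM with nanoparticles. The groups overlapped (log2 0.011, SE 0.034, edgeR adjusted p = 0.92). RAB11B, at 87.3 CPM per kilobase the most abundant of the class per length, had a log2 fold change of -0.019 (SE 0.037), and RAB35, of fast recycling, one of -0.018 (SE 0.035). RAB4A, which returns receptors straight from the early endosome, was at 45.4 and 44.7 CPM with PBS and at 44.4 and 44.1 CPM with nanoparticles (log2 -0.027, SE 0.050). RAB15 had the smallest p, with 44.95 and 44.6 CPM with PBS against 40.7 and 43.0 CPM with nanoparticles (log2 -0.096, SE 0.052, edgeR adjusted p = 0.367). The epithelial members RAB25 and RAB17 had at most 1 count in any library.

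The secretory RABs carry vesicles and granules to the plasma membrane. Of 13 members 11 were tested, and 3 had an interval within 1.2-fold. Their log2 fold changes ran from -0.19 to 0.19, with a median of -0.028. RAB10 and RAB8A, of constitutive delivery to the surface, had the highest levels per length at 57.8 and 51.8 CPM per kilobase. RAB10 was at 201 and 199.6 CPM with PBS and at 206 and 210.3 CPM with nanoparticles (log2 0.054, SE 0.032, edgeR adjusted p = 0.422). RAB8A was at 144 and 151 CPM with PBS and at 145 and 144 CPM with nanoparticles (log2 -0.028, SE 0.035). The nanoparticle libraries of RAB10 were both above the PBS libraries, while those of RAB8A overlapped with them.

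RAB27A, which docks secretory granules and exosome-bearing endosomes at the plasma membrane, had the smallest p of all members. It was at 19.6 and 17.1 CPM with PBS and at 16.8 and 15.4 CPM with nanoparticles. The groups did not overlap, with a log2 fold change of -0.19 (SE 0.084, unadjusted p = 0.0374, edgeR adjusted p = 0.259). Its paralogue RAB27B had 14.9 and 15.7 CPM with PBS and 18.9 and 15.4 CPM with nanoparticles, where nanoparticle replicate 2 lay among the PBS values (log2 0.17, SE 0.092, edgeR adjusted p = 0.376). RAB27B is named here after its values were seen, and the difference between these paralogues was not tested. RAB27A made up 73.4% and 69.7% of the summed RAB27 level per kilobase with PBS and 65.1% and 67.8% with nanoparticles. With all exons in place of the principal transcript, its PBS share was 61.3% ± 3.02 (SD, n = 2). The same coding stretch of the paralogues is given to show that their reads can be separated, again with the loop in capitals.
RAB27A: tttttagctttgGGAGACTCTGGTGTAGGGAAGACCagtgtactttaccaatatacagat
RAB27B: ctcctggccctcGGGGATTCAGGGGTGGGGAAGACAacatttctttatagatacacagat
They differ at 21 of 60 bases, and their longest shared run in the coding sequence is 17 bases. RAB27A lies on chromosome 15 from 55202966 to 55319113 and RAB27B on chromosome 18 from 54717860 to 54895516.

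**Figure D2:**
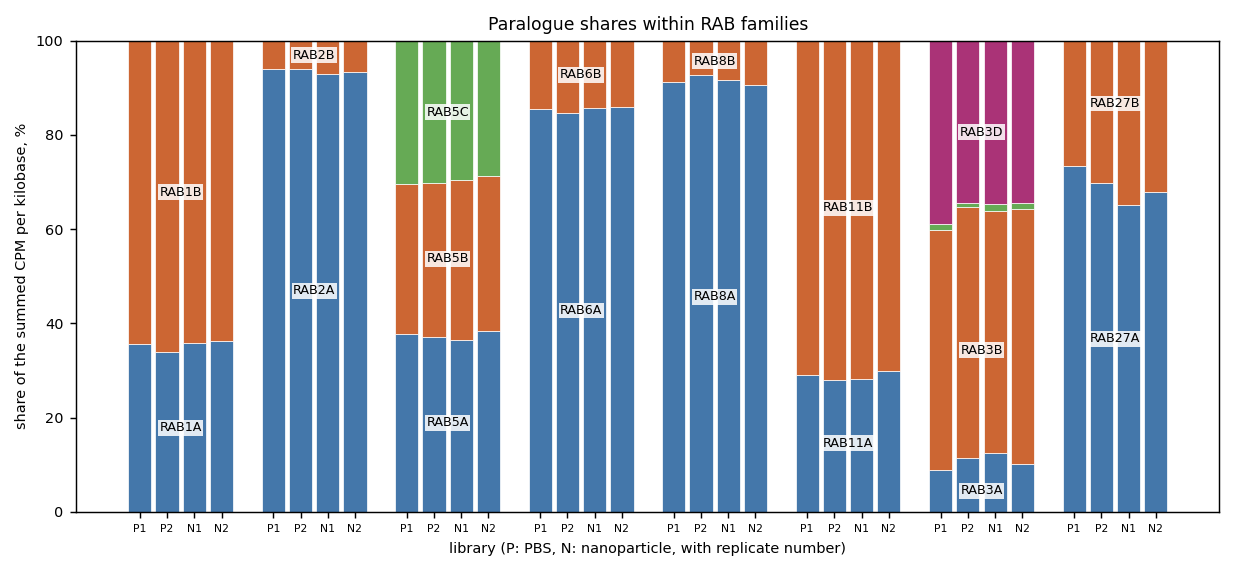
Share of each paralogue in the summed CPM per kilobase of its RAB family (vertical axis, %), 1 bar per library (P1, P2: PBS; N1, N2: nanoparticle). RAB27A takes 73.4% and 69.7% with PBS and 65.1% and 67.8% with nanoparticles, and the thin band between RAB3B and RAB3D is RAB3C.

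RAB3B, a RAB of regulated secretion, was the single member that passed under any alternative. It had 79.3 and 81.8 CPM with PBS and 75.2 and 80.2 CPM with nanoparticles, so the groups overlapped (log2 -0.053, SE 0.043, edgeR adjusted p = 0.594). In these data long transcripts had higher fold changes: the median log2 fold change of genes above 5 CPM went from -0.064 in the shortest to 0.082 in the longest of 10 length bins. The principal transcript of RAB3B has 12844 bases. After removal of the length trends its log2 fold change was -0.17 (SE 0.040, edgeR adjusted p = 0.0338), and with length and GC trends removed it was -0.16 (SE 0.038, edgeR adjusted p = 0.0401). In these fits 1 of the 50 members passed, against 1.38% and 1.51% of all genes. RAB21, with a principal transcript of 15546 bases, went from a log2 fold change of 0.064 to -0.074 with the length trend removed. Across the 50 members Spearman's rank correlation of fold change was 0.13 with length and -0.46 with GC content, and -0.26 with length after removal of the length trends, given as descriptions of genes that share the same libraries.

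**Figure D3:**
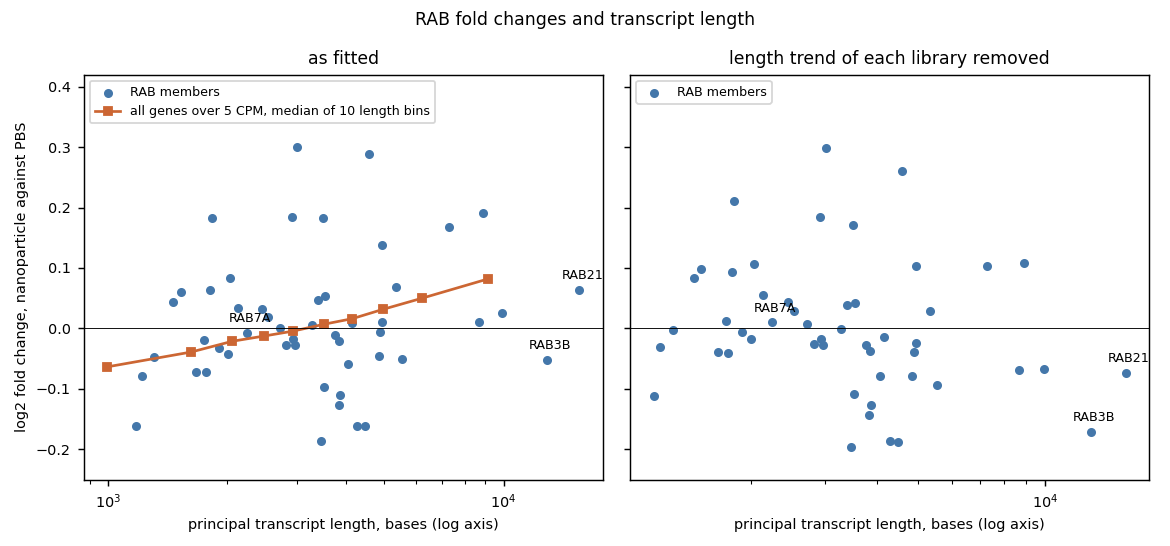
Log2 fold change (vertical axis) against principal transcript length (horizontal log axis) of the 50 tested RAB members, as fitted (left) and with each library's length trend removed (right). Squares give the medians of all genes above 5 CPM in 10 length bins, from -0.064 to 0.082, and RAB3B goes from -0.053 to -0.17.

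Of the 16 RABs of the ER and Golgi 11 were tested, and their log2 fold changes ran from -0.16 to 0.29. RAB1B, which with RAB1A controls traffic from ER to Golgi, stood at 132 CPM per kilobase, with 261 and 277 CPM with PBS and 266 and 256 CPM with nanoparticles (log2 -0.042, SE 0.034, edgeR adjusted p = 0.594). RAB1A stood at 72.4 CPM per kilobase, with 176.7 and 173.7 CPM with PBS against 181.0 and 177.1 CPM with nanoparticles. Its groups did not overlap (log2 0.032, SE 0.033, edgeR adjusted p = 0.692). RAB1B took 65.1% ± 1.23 (SD, n = 2) of the RAB1 level per kilobase with PBS and 64.0% ± 0.305 with nanoparticles. RAB2B had the smallest p of the class, at 12.3 and 12.1 CPM with PBS and 13.8 and 13.9 CPM with nanoparticles. Its groups did not overlap, with a log2 fold change of 0.18 (SE 0.086, unadjusted p = 0.0457, edgeR adjusted p = 0.286). RAB2A, its more abundant paralogue, had a log2 fold change of -0.020 (SE 0.034). RAB33B, named after its values were seen, had an estimate of 0.29 (SE 0.16) that ran from 0.046 without PBS replicate 2 to 0.58 without PBS replicate 1.

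RAB6A, of traffic from the Golgi, shares sequence with the members RAB6C and RAB6D. It was at 104 and 101.5 CPM with PBS and at 106 and 107 CPM with nanoparticles, where both nanoparticle libraries were above the PBS libraries (log2 0.048, SE 0.037, edgeR adjusted p = 0.564). RAB6C had 1 to 4 counts and RAB6D 2 to 9 counts per library, and neither was tested. Their coding stretches are shown beside that of RAB6A, with the loop in capitals.
RAB6A: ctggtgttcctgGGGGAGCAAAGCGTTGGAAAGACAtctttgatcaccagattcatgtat
RAB6C: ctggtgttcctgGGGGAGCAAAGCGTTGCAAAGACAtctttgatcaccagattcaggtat
RAB6D: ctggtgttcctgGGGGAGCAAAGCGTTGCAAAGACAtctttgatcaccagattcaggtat
RAB6A and RAB6C differ at 2 of the 60 bases, 1 of them in the loop, and RAB6C and RAB6D at 0. RAB6A and RAB6C share a run of 121 bases in the coding sequence, and 21.6% of the 50-base windows of the RAB6A transcript also occur in transcripts of other genes, against 55.8% for RAB6C and 55.01% for RAB6D. RAB6A lies on chromosome 11 from 73675638 to 73761137, RAB6C on chromosome 2 from 129979664 to 129982738 and RAB6D on chromosome 2 from 131361111 to 131364142.

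**Figure D4:**
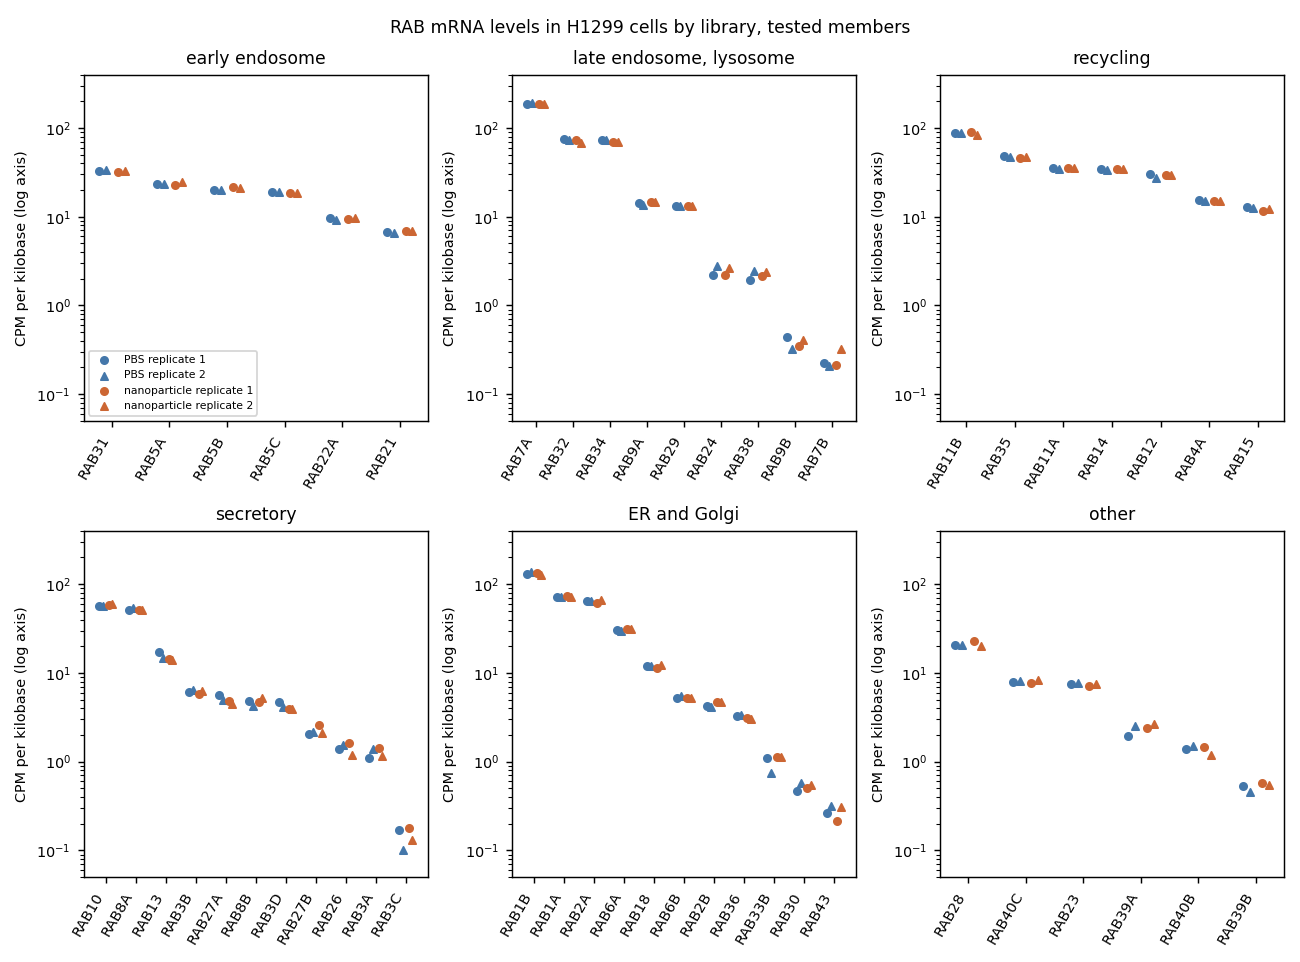
Level of each tested RAB mRNA in CPM per kilobase (vertical log axis) by library, in 6 panels by step, genes ordered by mean level. RAB7A is highest at 187 and RAB1B next at 132, and for most genes the 4 libraries lie close together.

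Members outside these steps, 6 of 8 tested, had log2 fold changes from -0.11 to 0.18. RAB28, a ciliary RAB, had the highest level per length of them at 21.0 CPM per kilobase (log2 0.064, SE 0.060), followed by RAB40C, part of a ubiquitin ligase, at 8.03 (log2 0.0013, SE 0.072). RAB39A had the smallest p, at 3.60 and 4.56 CPM with PBS and 4.401 and 4.86 CPM with nanoparticles (log2 0.18, SE 0.15, edgeR adjusted p = 0.593). The groups overlapped.

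The 13 members that were too low to be tested were RAB4B, RAB6C, RAB6D, RAB17, RAB19, RAB20, RAB25, RAB33A, RAB37, RAB40A, RAB41, RAB42 and RAB44, with a mean of at most 7.75 counts. RAB17, RAB41 and RAB42 had 0 counts in all 4 libraries, which allows up to 0.135 CPM in PBS replicate 1. A low count is not always a low level, since HTSeq by default leaves uncounted the reads that fall in exons of more than 1 gene. RAB4B had 3 to 10 counts, and 36.8% of its exon bases and 66.01% of its 50-base windows are shared, chiefly with the readthrough genes RAB4B-EGLN2 and MIA-RAB4B. RAB43 (79.3% of exon bases, with ISY1-RAB43), RAB24 (44.8%, with MXD3) and RAB13 (24.8%, with AL358472.6) were tested but share exon bases in the same way, as do RAB5C and RAB4A (19.6%, with SPHAR). Without the 6 tested members that share at least 10% of their windows, chosen after the data were seen, 0 of 44 passed and the median log2 fold change was 0.0077. Of the tested members, RAB23 and RAB8A have the most exon bases under an opposite-strand gene (57.7% and 37.8%), and whether counting used strand is not stated.

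Among the genes that act on RAB proteins, CHM was the single one that passed. It was 1 of 8 escort, GDI and prenylation genes, and 0 of 40 exchange factors, 36 GAPs and 56 effectors and tethers passed, against 2.58% of all tested genes past the threshold. CHM encodes Rab escort protein 1, which presents newly made RABs to the enzyme that attaches their lipid anchors. It had 34.0 and 36.5 CPM with PBS and 40.1 and 42.4 CPM with nanoparticles, so the groups did not overlap. CHM rose by a log2 fold change of 0.23 (SE 0.057, 95% interval 0.11 to 0.35, edgeR adjusted p = 0.0353), and lies on chromosome X from 85861180 to 86047562. Of 14 alternatives 6 kept this call. It did not pass by DESeq2 (adjusted p = 0.409), with edgeR without a low-count filter (0.545), with the length trend removed (log2 0.19, edgeR adjusted p = 0.108), with length and GC trends removed (log2 0.15, edgeR adjusted p = 0.207) or without any 1 of the 4 libraries (0.509 without PBS replicate 1, 0.47 without PBS replicate 2, 0.0676 without nanoparticle replicate 1 and 0.338 without nanoparticle replicate 2, all edgeR adjusted p). Of the 8 escort, GDI and prenylation genes the other 7 did not pass. Its paralogue CHML had 47.8 and 48.0 CPM against 50.5 and 51.7 CPM (log2 0.092, SE 0.048), and GDI2 a log2 fold change of -0.041.

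Of 40 tested exchange factors 0 passed, and 6 were at an unadjusted p under 0.05 in edgeR, against 16.8% of all genes, with a median log2 fold change of 0.017. DENND5B, an exchange factor of the DENN family, had the smallest p, with 101 and 102 CPM with PBS and 113 and 109 CPM with nanoparticles (log2 0.13, SE 0.037, edgeR adjusted p = 0.0695). It passed with total-count scaling (0.0492), and DENND4C, a DENN-family factor known to act on RAB10, passed with it under the stricter filter and with the replicate block. With the length trend removed the log2 fold change of DENND5B, whose principal transcript has 9470 bases, was 0.042. Of 36 tested GAPs 0 passed, 1 was at an unadjusted p under 0.05, and the median was 0.042. Log2 fold changes were above 0 for 26 and below for 10, and both nanoparticle libraries were above PBS for 16 and below for 2, where 23.7% and 23.2% of all tested genes stood apart in these ways. With the length trend removed 17 were above and 19 below, with a median of -0.0056 against -0.0034 for all tested genes. With length and GC trends removed 21 were above and 15 below, with a median of 0.013 against -0.0036. Whether transcript length accounts for the values of the GAPs was not tested. The GAP with that p was TBC1D2, a GAP of RAB7, at 21.1 and 22.4 CPM with PBS and 19.4 and 18.5 CPM with nanoparticles (log2 -0.20, SE 0.072, edgeR adjusted p = 0.16). Of 56 tested effectors and tethers 0 passed and 6 were at an unadjusted p under 0.05, against 16.8% of all genes, with a median of 0.011. GOLGA2, the Golgi matrix protein GM130 that binds RAB1, had the smallest p, at 101.5 and 97.0 CPM against 106.9 and 107.6 CPM (log2 0.11, SE 0.038, edgeR adjusted p = 0.128). The median length of the transcript used was 4687.5 bases for the GAPs, 4600 for the exchange factors and 3424 for the RAB genes, against 2856.5 for all tested genes.

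**Figure D5:**
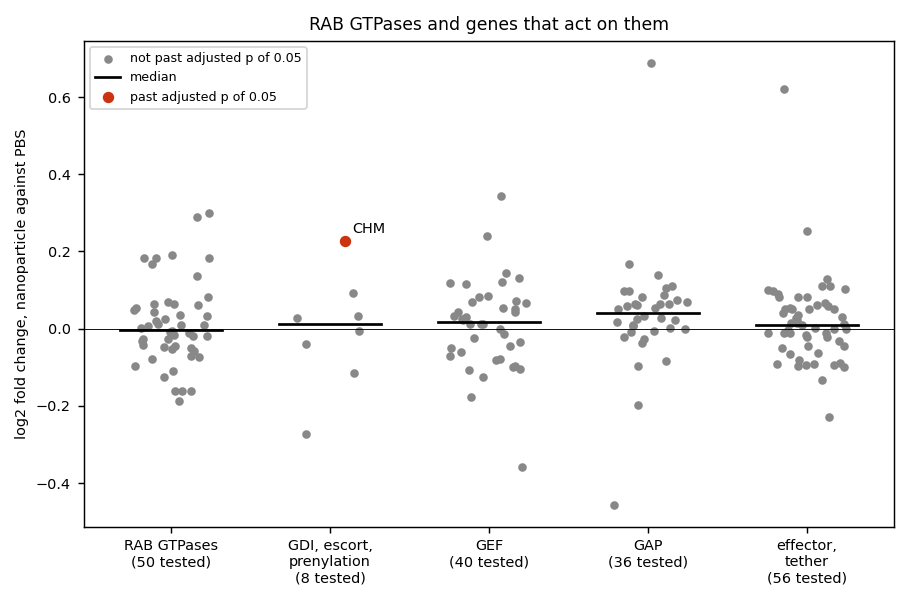
Log2 fold change (vertical axis) of the tested RAB GTPases and of 4 lists of genes that act on RAB proteins or bind them, 1 point per gene, bars at the medians. CHM, at 0.23, is the single point past an adjusted p of 0.05.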

How the data were processed

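Polyadenylated RNA of 4 H1299 libraries was counted per gene. The authors deposited raw counts, 1 whole number per Ensembl gene and library. STAR 2.7.6a, HTSeq 2.0.2, cutadapt 3.5, bcl2fastq 2.20, Picard and the build GRCh38 are named in the submitters' processing notes. Which annotation release and strand setting they used is not given in those sources. Groups follow the treatment label, although nanoparticle titles also say control. Rows for reads given to no gene (13.7% to 14.8% of reads) were left out. Gene symbols were looked up by Ensembl ID, and types, coordinates and lengths were taken from GENCODE 29, which need not be the release behind the counts. A length is that of the longest APPRIS principal transcript, with transcripts of the GENCODE basic set preferred. A gene without a principal transcript was given its longest basic transcript or, failing that, its longest transcript.

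Genes were filtered with filterByExpr, scaled by TMM and tested on the whole table with edgeR 4.0.16 (R 4.3.3; glmQLFit, glmQLFTest, two-sided, Benjamini-Hochberg over 15778 genes, threshold 0.05). The biological coefficient of variation was 2.46%. Standard errors came from the coefficient and its F statistic. Chi-square per degree of freedom between replicates was 1.78 for PBS and 1.95 for nanoparticle libraries, above sampling noise, and each library counted as 1 replicate. Members, step classes and the lists of RAB-acting genes were chosen with earlier results of these data known. Named genes are the textbook member of each step, in each class the 2 with the highest level per kilobase and the smallest p, and in each list those past the threshold or the smallest p. Others were named after their values were seen. The 14 alternatives were other scalings, filters, DESeq2 1.42.0, limma-voom (limma 3.58.1), the replicate number as a block, removal of length or length and GC trends (robust splines with 4 degrees of freedom, MASS 7.3.60.0.1) and leaving out each library. The fit was tested on simulated counts. Shared reads were described by 50-base windows of the principal transcript found in transcripts of other genes. Intervals, and the level that 0 counts allow (3 counts), cover these libraries only.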

Additional observations from a re-analysis of the deposited data

How the results depend on the processing

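Over the 14 alternatives the number of RAB members past the threshold was 0, except for 1 (RAB3B, of the secretory class) with the length trend removed and with length and GC trends removed. The median log2 fold change of the members was -0.015 with upper-quartile scaling and -0.015 with the length trend removed, and ran from -0.018 to 0.015 when 1 library was left out. Of the 50 tested members 25 kept their sign throughout and 25 changed it at least once. Among those named, RAB11A was at -0.0022 with upper-quartile scaling, -0.024 with the length trend removed, -0.059 with length and GC trends removed and between -0.020 and 0.039 with 1 library left out. RAB11B was at 0.012, 0.040 (the same trend removals) and between -0.065 and 0.026. RAB7A was at 0.0022 without a filter, 0.0100 and 0.0086 with the trend removals and between -0.033 and 0.016. RAB40C was at -0.011 with upper-quartile scaling, -0.00028 by limma-voom and between -0.067 and 0.067. With 1 library left out RAB1B ran from -0.086 to 0.00066, RAB28 from -0.021 to 0.14, RAB5A from -0.025 to 0.063 and RAB8A from -0.063 to 0.0062.

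The escort, GDI and prenylation list had 0 genes past the threshold without a low-count filter, by DESeq2, with either trend removal and without any 1 library (range 0 to 0), and 1, CHM, otherwise. The exchange factor list had 1 with total-count scaling, 2 with the stricter filter of 50 counts and 2 with the replicate block, and 0 to 0 with 1 library left out. Over the whole table, 407 genes passed by edgeR, against 602 with the stricter filter, 217 and 238 with the trend removals, 90 by DESeq2, 0 without a low-count filter, 0 without PBS replicate 1 or 2, 200 without nanoparticle replicate 1 and 76 without nanoparticle replicate 2. The cause of these shifts was not tested.

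Same-numbered libraries of the groups did not deviate together (correlation 0.0080 across genes), so the numbers were not taken as pairs. With the replicate block 0 RAB members passed and 759 genes passed in all, against 407. A lone library left in a group was assumed to vary like the other group. Depth limits the members under 100 counts, 9 of the 50 tested, but not these alone. Some members with more counts also had an interval beyond 1.2-fold, such as RAB27A (mean 405.5 counts) and RAB8B (mean 557 counts).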
